A study of Rattus norvegicus with 12 samples.

Results

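The interleukin-6 (IL-6) family receptors and the Jak-Stat3 pathway behind them were examined in the central nucleus of the amygdala (CeA) of rats, as 10 genes chosen by name from the 37209 gene names in the count table. The 10 genes were the receptor subunits *Il6r*, *Il6st*, *Lifr*, *Osmr* and *Cntfr*, the kinases *Jak1*, *Jak2* and *Tyk2*, the transcription factor *Stat3* and its feedback inhibitor *Socs3*. All 10 had enough counts to be tested. The series held 12 RNA sequencing libraries, each from the CeA of 1 male, wild-type Sprague Dawley rat aged 14 to 16 weeks. The 6 rats of the CIE group were exposed to chronic intermittent ethanol vapor for several weeks and were killed as the last vapor period ended, while still intoxicated. The 6 rats of the Control group breathed air throughout and were otherwise handled alike, and both groups were anaesthetised with isoflurane before death. The tissue was punched from frozen sections of 1 hemisphere per rat, so that neurons, glia and vessels were sequenced together, and the rats were group housed in cages that the labels do not give.

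Cytokines of the IL-6 family signal through receptor complexes built around *Il6st*, which encodes gp130, the signaling subunit that the family shares. IL-6 binds the receptor encoded by *Il6r*, either on the cell's own membrane or shed from another cell, while leukemia inhibitory factor, oncostatin M and ciliary neurotrophic factor use *Lifr*, *Osmr* and *Cntfr* with gp130. The engaged receptors activate Janus kinases, which phosphorylate Stat3, and Stat3 dimers then enter the nucleus and induce target genes, among them *Socs3*, whose protein binds gp130 and the kinases and stops the signal. In the brain the pathway is known above all for its part in the response of astrocytes and microglia to injury and inflammation. Phosphorylation, by which Stat3 is switched on, is not seen in RNA counts.

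The libraries held 61978486 to 78441691 counts in CIE rats and 39082548 to 95647601 in Control rats, the lowest being Control rat 11. Most of these totals exceed the average read number that the study gives per sample. The reason was not examined, so a count may not stand for a separate read pair. Of 10 CeA markers, 9 were in the table and all were detected, among them *Prkcd*, the marker of a class of inhibitory CeA neurons, which averaged 31.7 ± 8.25 CPM (counts-per-million after scaling between libraries; SD, n = 6) in CIE rats and 34.9 ± 5.81 CPM in Control rats, and *Crh*, the stress peptide, with averages of 5.97 ± 1.54 and 8.15 ± 1.20 CPM. Some libraries stood apart in what else they held. The summed level of 6 cortical glutamatergic markers, led by the vesicular glutamate transporter *Slc17a7*, was above 100 CPM in CIE rats 1, 2 and 4 (406, 209 and 261 CPM) and in Control rat 10 (152 CPM), and lay between 8.90 and 58.2 CPM in the other 8 rats. The summed level of 6 striatal markers was also high in CIE rat 2 and Control rat 10, at 3106 and 3449 CPM, and none of these cortical or striatal markers was at 0 throughout the 12 rats.

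Of the 10 genes, 2 passed the nominal p threshold of 0.05 (edgeR's quasi-likelihood test on all 12 rats), *Il6r* and *Tyk2*, and both were higher in the CIE group. Among all 20944 genes tested, 8.31% passed that threshold, made up of 4.0% that were higher with CIE and 4.31% that were lower. With 10 genes a single call moves the share far, and the 2 calls do not set these genes apart from that background. None passed a false discovery rate (FDR, Benjamini-Hochberg adjustment over all genes tested) of 5% in edgeR, in DESeq2 or in limma-voom, a threshold that 0.363% of all genes passed in edgeR. That threshold was passed by 274 of 29389 genes in DESeq2 and by 234 of 20944 in limma-voom. None of the 10 had CIE and Control rats without overlap, which 0.893% of all genes had. The median log2 fold change (log2FC, CIE minus Control) of the 10 genes was 0.09, against 0.00 over all genes, and the median size of the change, sign left aside, was 0.12 against 0.11. In tissue of mixed cells, a lower level can come from fewer cells of a type or from less RNA per cell, and these cannot be told apart here.

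**Figure D1:**
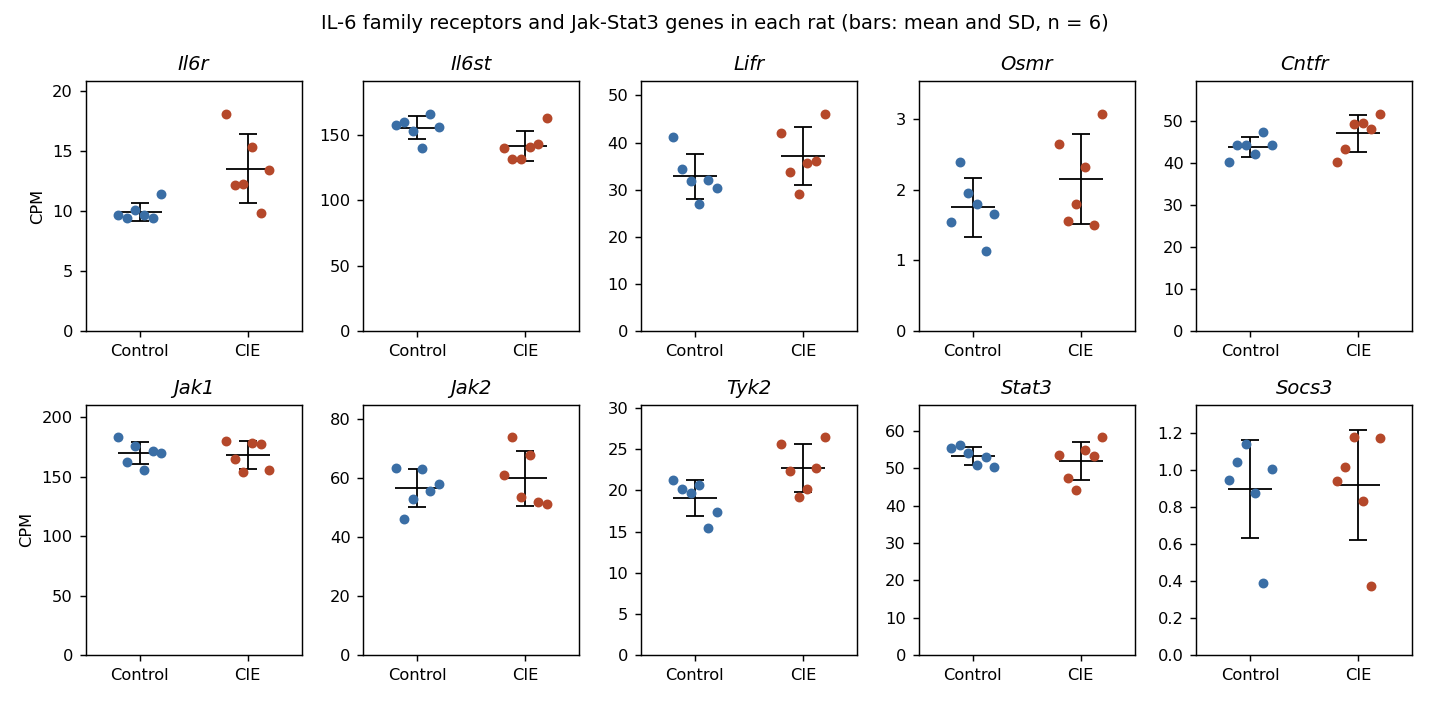
Level of each of the 10 genes in CPM (vertical axes, from 0) in the 6 Control rats (blue) and the 6 CIE rats (red), 1 point per rat, with horizontal bars at the group mean and whiskers of 1 SD. For *Il6r*, 5 of 6 CIE points lie above every Control point, while for *Jak1* and *Socs3* the 2 clouds of points cover much the same range.

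*Il6r*, the receptor subunit that binds IL-6 itself, had the smallest p value of the 10. Its lowest, median and highest values were 9.87, 12.8 and 18.1 CPM among CIE rats and 9.44, 9.71 and 11.4 CPM among Control rats. CIE rats 1 and 4 were highest, at 18.1 and 15.4 CPM, and CIE rat 5, at 9.87 CPM, was the single CIE rat inside the Control range. The group means of 13.5 (SD 2.87) and 9.97 (SD 0.742) CPM gave a log2FC of 0.44 (SE 0.12, 95% interval 0.17 to 0.71), a difference of 35.8% at nominal p 0.00327 by edgeR with an FDR of 0.227. The spread among CIE rats was wider, with a coefficient of variation of 21.2% against 7.45% among Control rats.

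The level of *Il6r* was high in some, but not all, of the rats rich in cortical glutamatergic RNA. CIE rats 1 and 4 were highest in both. Within the Control group rat 12, at 58.2 CPM of these markers, had the highest *Il6r*. Control rat 10, at 152 CPM of markers, had *Il6r* at 9.70 CPM, inside the range of the other Control rats. CIE rat 2, at 209 CPM of markers, had *Il6r* at 12.2 CPM. That was below CIE rat 3 (8.90 CPM of markers, *Il6r* 12.3 CPM) and CIE rat 6 (53.1 CPM of markers, *Il6r* 13.4 CPM). All 6 cortical markers were fitted higher in the CIE group, with a median log2FC of 1.76, and 1 of them passed the nominal p value. Of the 9 CeA markers, 8 were fitted lower in the CIE group, with a median log2FC of -0.14. The nominal p value was passed by 2 of the 9, all lower, among them *Crh* (log2FC -0.45, nominal p 0.0193 by edgeR). In fits chosen after these values were seen, the *Il6r* log2FC was 0.30 (nominal p 0.0229) with the cortical marker score as a covariate in edgeR. Without the 4 rats above 100 CPM it was 0.26 and no longer passed (nominal p 0.0635 by edgeR), with means of 11.9 ± 1.81 CPM in the 3 remaining CIE rats and 10.02 ± 0.817 CPM in the 5 remaining Control rats. How much of the *Il6r* difference goes with the cortical RNA was not tested beyond these fits.

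**Figure D2:**
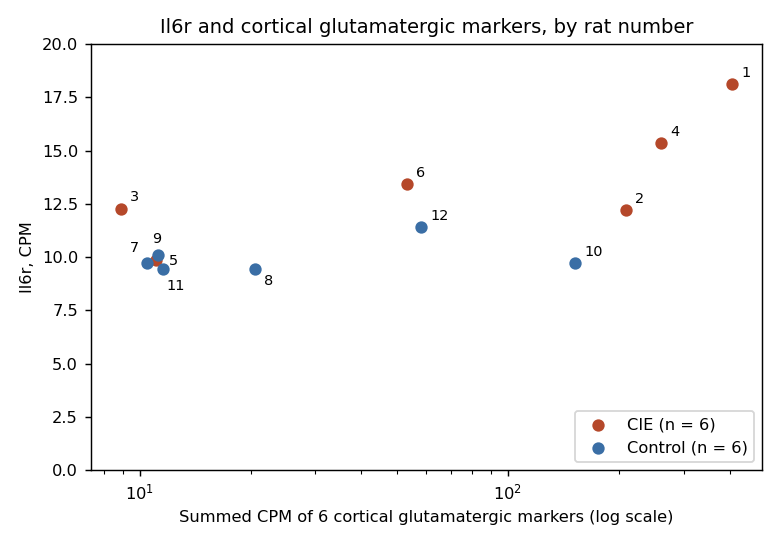
*Il6r* level in CPM (vertical axis, from 0) against the summed CPM of 6 cortical glutamatergic markers (horizontal axis, log scale), 1 point per rat, with rat numbers beside the points, CIE in red and Control in blue. CIE rats 1 and 4 are highest on both axes, while CIE rat 3, at 8.90 CPM of markers, has *Il6r* at 12.3 CPM, above every Control rat.

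*Il6st*, which encodes the shared subunit gp130, was fitted in the opposite direction. It ran from 131 over a median of 140.0 to 163 CPM among CIE rats and from 139.9 over 157 to 166 CPM among Control rats. CIE rats 2 and 3 and, narrowly, 1 further CIE rat lay below every Control rat, while CIE rat 6, at 163 CPM, lay above all Control rats but 1. The log2FC was -0.13 (SE 0.07, 95% interval -0.27 to 0.01, nominal p 0.0577, FDR 0.621 by edgeR), and leaving out CIE rat 6 moved it to -0.18 with a nominal p of 0.00935. With the myelin marker score (the mean of 10 markers of myelinating oligodendrocytes) as a covariate it was -0.06 (nominal p 0.490). Leaving out Control rat 10, or weighting the samples in limma-voom, likewise brought the nominal p below 0.05 (0.0304 and 0.00728). Without the 4 rats rich in cortical markers its log2FC was -0.10 (nominal p 0.215).

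Because *Il6r* signals only with gp130, the pair was also compared within each library, where the scaling between libraries plays no part. For every 100 *Il6st* counts, CIE rats had 6.89 to 13.0 *Il6r* counts and Control rats 5.69 to 7.30. Again 5 of 6 CIE rats were above every Control rat, and CIE rat 5 was the exception. The mean log2 ratio differed by 0.56, with a p of 0.00649 in a two-sided exact permutation test. This p was 0.0195 after adjustment over the 3 ratios examined. The ratio largely restates the log2FC of *Il6r* (0.44) and of *Il6st* (-0.13) and is no separate evidence. *Il6r* alone gave the same exact permutation p, and its FDR over all genes was 0.227 by edgeR. The adjustment covers only the 3 ratios, whose genes were chosen with earlier results known. A background share over other gene pairs was not computed. Without the 4 rats rich in cortical markers the log2 ratio differed by 0.36 (exact permutation p = 0.0714). With 3 rats against 5, the remaining CIE rats had 6.89 to 9.32 *Il6r* counts per 100 *Il6st* counts and the remaining Control rats 5.69 to 7.30.

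The other receptor subunits did not differ at the nominal p value. *Lifr*, the subunit for leukemia inhibitory factor that also joins the complexes of ciliary neurotrophic factor, had a lowest, median and highest value of 29.0, 35.9 and 46.1 CPM in CIE rats and 26.9, 31.9 and 41.3 CPM in Control rats. *Cntfr*, the subunit that binds ciliary neurotrophic factor, ran from 40.2 over 48.7 to 51.7 CPM in the CIE group and from 40.2 over 44.3 to 47.4 CPM in the Control group. For *Cntfr*, 4 CIE rats were above every Control rat and the other 2 were among the Control values, and for *Lifr* CIE rats 6 and 1 and Control rat 7 were the highest. The log2FC values were 0.18 for *Lifr* (95% interval -0.07 to 0.43, nominal p 0.149) and 0.10 for *Cntfr* (95% interval -0.04 to 0.25, nominal p 0.148). The interval of *Cntfr* thus held changes of up to 19.0%, and in the 8 rats poor in cortical markers, a set chosen after the values were seen, its log2FC was 0.19 (nominal p 0.0290). It passed as well without CIE rat 1 (nominal p 0.0386), and *Lifr* passed without Control rat 7 (nominal p 0.0379) or CIE rat 3 (nominal p 0.0498). In the 8 rats poor in cortical markers *Lifr* was at 0.14 (nominal p 0.354) and *Osmr* at 0.30 (nominal p 0.331). *Osmr*, the oncostatin M subunit, was low, with 44 to 249 counts per library, and its values of 1.497 to 3.07 CPM in CIE rats covered most of the Control range of 1.14 to 2.38 CPM, with a log2FC of 0.29 (95% interval -0.18 to 0.76, nominal p 0.204).

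Most myelin markers were lower in the CIE group, and 2 further genes passed the nominal p value with their score as a covariate. Of 10 markers of myelinating oligodendrocytes, 9 were lower in the CIE group at the nominal p value, and their summed level lay between 3929 and 9595 CPM in CIE rats and between 5858 and 10981 CPM in Control rats. With that score in edgeR, the log2FC of *Lifr* became 0.37 (nominal p 0.0160), that of *Osmr* 0.59 (nominal p 0.0416) and that of *Tyk2* 0.45 (SE 0.10, nominal p 0.000711, FDR 0.138). Among 10 astrocyte markers, 1 was higher and 2 were lower, and among 10 microglial markers 1 was lower, at the nominal p value, with summed levels of 2701 to 3394 against 2867 to 3294 CPM for astrocytes and 371 to 474 against 408 to 468 CPM for microglia. Vessel markers were lower as well, with 4 of 8 endothelial markers (median log2FC -0.27, summed level 188 to 253 against 214 to 272 CPM) and 4 of 7 mural markers (median log2FC -0.30, 86.6 to 141 against 120 to 139 CPM) passing the nominal p value. The mural potassium channel gene *Kcnj8* (log2FC -0.96, FDR 0.0300 by edgeR) and, of 5 tested leukocyte markers, the cytokine receptor gene *Il2rg* (log2FC -1.53, FDR 0.0297 by edgeR, no overlap between groups) passed 5% FDR. With the endothelial marker score as a covariate, *Il6r* was at 0.33 (nominal p 0.0496) and *Tyk2* at 0.32 (nominal p 0.0229).

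Among the kinases, *Tyk2*, a Janus kinase that serves gp130 as well as interferon receptors, was the one that differed. Its lowest, median and highest values were 19.2, 22.5 and 26.5 CPM in CIE rats and 15.5, 19.9 and 21.3 CPM in Control rats. CIE rats 1 and 6 were highest and Control rats 11 and 12 lowest, and 4 CIE rats were above every Control rat. The log2FC was 0.25 (SE 0.10, 95% interval 0.04 to 0.46), a difference of 19.0% at nominal p 0.0240 and an FDR of 0.503 by edgeR. The call depended on single rats, as leaving out CIE rat 1, CIE rat 6, Control rat 11 or Control rat 12 brought the nominal p to 0.0584, 0.0557, 0.0565 and 0.0532. It was 0.0754 with the cortical marker score as a covariate (log2FC 0.21) and 0.0463 without the 4 rats rich in cortical markers (log2FC 0.29).

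*Jak1*, the kinase on which gp130 signaling depends most, and *Jak2*, which gp130 also engages, did not pass the nominal p value. *Jak1* ran from 154 over 171 to 179.9 CPM in CIE rats and from 156 over 171 to 183 CPM in Control rats, and its log2FC of -0.01 had a 95% interval of -0.15 to 0.12, that is from -9.77% to 8.69%. *Jak2* ran from 51.3 over 57.3 to 73.8 CPM in CIE rats and from 46.2 over 56.9 to 63.5 CPM in Control rats, with a log2FC of 0.08 (95% interval -0.14 to 0.31, nominal p 0.452). CIE rats 2 and 4, both rich in cortical markers, had the highest *Jak2*, and the sign of its fold change turned without the 4 such rats (-0.07). Within libraries, *Tyk2* counts per 100 *Jak1* counts were 11.3 to 17.01 in CIE rats and 9.01 to 13.3 in Control rats. This ratio differed by 0.27 on the log2 scale (exact permutation p = 0.0411, 0.0617 after adjustment over 3 ratios).

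**Figure D3:**
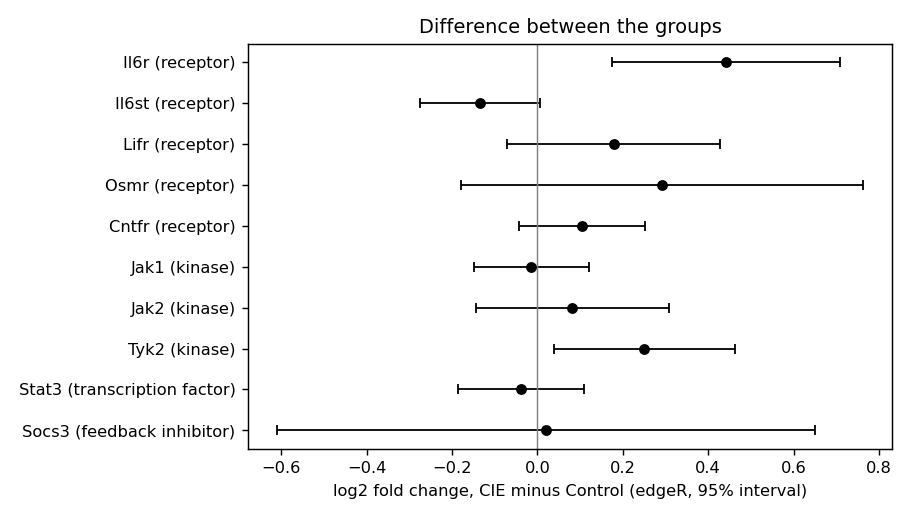
Log2FC (horizontal axis, CIE minus Control) of each of the 10 genes, with its 95% interval from edgeR over 6 CIE and 6 Control rats; the vertical line marks no difference. The intervals of *Il6r* (0.17 to 0.71) and *Tyk2* (0.04 to 0.46) lie above 0, and that of *Socs3* is the widest (-0.61 to 0.65).

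*Stat3*, the transcription factor on which the family's signals converge, had a lowest, median and highest value of 44.2, 53.4 and 58.3 CPM in CIE rats and 50.4, 53.7 and 56.3 CPM in Control rats. The CIE rats were the more spread, with rats 2 and 3 below and rat 6 above every Control rat. Its log2FC was -0.04 (SE 0.07, 95% interval -0.19 to 0.11, nominal p 0.583), and the interval corresponds to changes from -12.1% to 7.86%.

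*Socs3*, whose transcript is the feedback arm that Stat3 itself induces, was scarce, with 15 to 100 counts per library. It ran from 0.374 over 0.977 to 1.17 CPM in CIE rats and from 0.388 over 0.973 to 1.14 CPM in Control rats. CIE rat 5 and Control rat 11 were lowest, each far under the rest of its group, and the other 10 rats overlapped throughout. The log2FC was 0.02 (SE 0.29, nominal p 0.945), and its 95% interval ran from -0.61 to 0.65, or from -34.4% to 56.9%. Changes within those bounds are thus not excluded. The counts of *Socs3* per 100 *Stat3* counts were 0.703 to 2.66 in CIE rats and 0.729 to 2.10 in Control rats, and the log2 ratio differed by 0.06 (exact permutation p = 0.807).

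**Figure D4:**
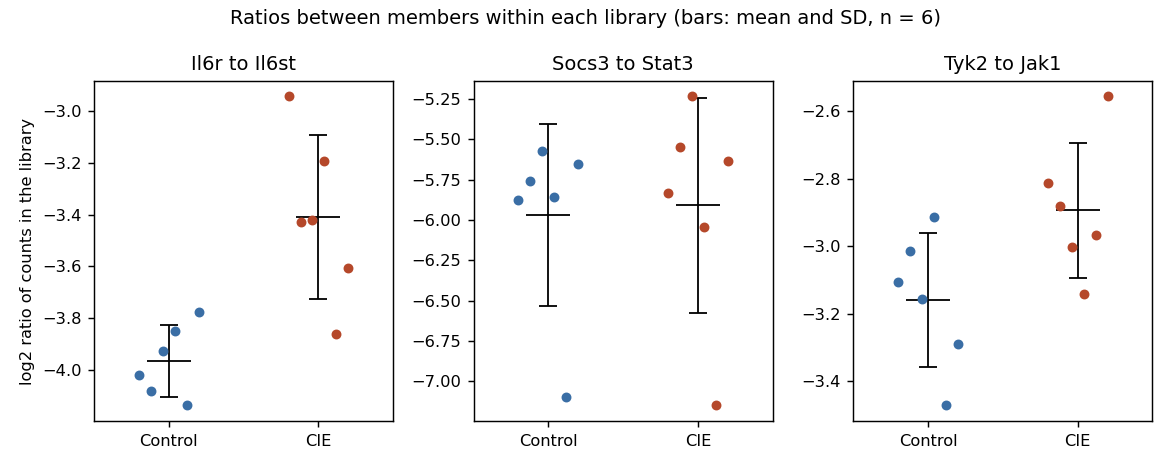
Log2 ratios of raw counts within each library (vertical axes, no unit) for *Il6r* to *Il6st*, *Socs3* to *Stat3* and *Tyk2* to *Jak1*, 1 point per rat, Control in blue and CIE in red, with horizontal bars at the mean and whiskers of 1 SD (n = 6). The first ratio separates all but CIE rat 5 from the Control rats, and in the second CIE rat 5 and Control rat 11 lie far below the others, at -7.15 and -7.10.

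Exact permutation tests of the mean CPM, run for each of the 10 genes and not adjusted, gave p = 0.00649 for *Il6r*, p = 0.0346 for *Tyk2* and p = 0.0498 for *Il6st*, where the smallest p that 6 against 6 rats can give is 0.00216. The other 7 genes were above 0.05. By the same test 8.52% of all genes tested were under 0.05.

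The genes were next compared among rats of the same group, with the group means removed from log2 CPM. Of 45 pairs, 29 had a positive correlation and 5 a permutation p under 0.05, but none passed adjustment over the 45 (lowest adjusted p 0.0850). The closest pair was *Lifr* and *Stat3*, with a Pearson r of 0.82 (permutation p = 0.00189) and a Spearman rho of 0.78 (permutation p = 0.00635) over 12 rats, and r was 0.81 once CIE rat 6 and Control rat 7 were removed, which had the most extreme *Lifr*. *Il6st* followed *Stat3* with r 0.74 (permutation p = 0.0125) and rho 0.62 (permutation p = 0.0411, adjusted p of r 0.218), and r was 0.66 without CIE rat 6 and Control rat 10. Between *Il6r* and *Il6st* r was 0.03 and between *Stat3* and *Socs3* -0.11, and all pairs come from the same 12 libraries. The genes whose level followed *Il6r* most closely, of 16890 with a mean of at least 1 CPM, were *St6galnac5* (r 0.93), *LOC102547703* (0.91), *Asxl3* (0.90), *LOC100909405* (0.90) and *Olfm1* (0.90), ranked over 12 rats and given with no test since they were picked for this value. Among the 6 CIE rats alone r was 0.96, 0.93, 0.94, 0.97 and 0.94 in that order, and among the 6 Control rats 0.68, 0.88, 0.55, 0.16 and 0.42.

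The pathway around these genes was described by 58 further genes in 6 lists, of which 53 could be tested. At the nominal p value 9 differed, or 16.98% beside the 8.31% of all genes, 5 higher and 4 lower in the CIE group, and none passed 5% FDR in edgeR, while *Adam17*, *Ccnd1* and *Cebpb* did so in DESeq2 and in limma-voom, and these 3 and *Junb* in edgeR without CIE rat 6. Their median log2FC was 0.03. With 1 rat left out in turn the count at the nominal p value lay between 5 and 10, lowest without CIE rat 1, while the share of all genes ran from 6.38% to 13.3%. It was 4 (7.55%, beside 11.4% of all genes) with the myelin marker score as a covariate and 9 (16.98%, beside 5.403% of all genes) without the 4 rats rich in cortical markers.

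**Figure D5:**
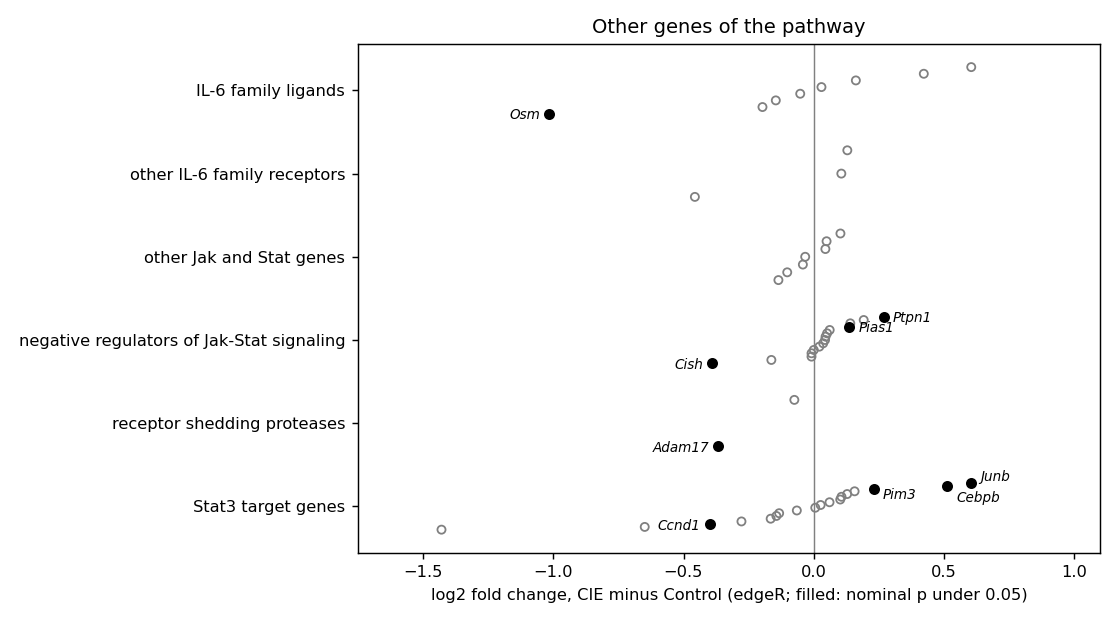
Log2FC (horizontal axis, CIE minus Control, edgeR) of the 53 tested genes of the pathway, 1 point per gene, in 6 rows by list; filled, named points passed a nominal p of 0.05. The filled points fall on both sides of 0, with 5 higher and 4 lower in the CIE group.

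Among the ligands, 8 of 11 could be tested. *Osm*, which encodes oncostatin M, a product of activated myeloid cells, was at 0.203 ± 0.104 CPM in CIE rats and 0.410 ± 0.220 CPM in Control rats, a log2FC of -1.01 (SE 0.47, nominal p 0.0480, FDR 0.595 by edgeR) on 4 to 72 counts per library. Only 1 CIE rat lay below every Control rat, and the call held in 2 of the 12 fits with a rat removed. The other tested ligands did not pass the nominal p value.

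*Il6* itself fell under the limit on low counts, so it is given here as counts, a choice made after its values were seen. CIE rats 1 to 6 had 16, 12, 0, 11, 8 and 18 *Il6* counts, and Control rats 7 to 12 had 5, 4, 6, 1, 0 and 1. The sums were 65 and 17 counts, and 5 of 6 CIE rats exceeded every Control rat in CPM, the exception being CIE rat 3 with none. In an edgeR fit with no limit on low counts, the log2FC was 1.95 (SE 0.77, nominal p 0.0224, FDR 0.586), and the exact permutation p of the mean CPM was 0.0195. With at most 18 counts in a library, these values rest on few counts.

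None of the 3 remaining receptors and 7 other Jak and Stat genes passed the nominal p value. *Il11ra1*, which binds interleukin-11, had a log2FC of 0.11 (SE 0.11, nominal p 0.350) and *Il27ra*, a receptor for interleukin-27, one of -0.46 (SE 0.45, nominal p 0.324) at 0.228 and 0.325 CPM. Among the Jak and Stat genes the smallest p values were those of *Stat5b*, a mediator of growth hormone and prolactin signals, at a log2FC of -0.10 (SE 0.10, nominal p 0.303) and *Jak3*, the kinase of lymphoid cytokine receptors, at 0.10 (SE 0.12, nominal p 0.419).

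Of 15 negative regulators, 2 were higher and 1 was lower. *Ptpn1*, a tyrosine phosphatase that removes phosphate from Janus kinases, was at 44.5 ± 7.08 CPM in CIE rats and 36.9 ± 4.24 CPM in Control rats, a log2FC of 0.27 (SE 0.11, nominal p 0.0239). The 3 CIE rats above every Control rat were rats 1, 2 and 4, those rich in cortical markers, and without these and Control rat 10 the log2FC was 0.12 (nominal p 0.191). *Pias1*, a SUMO ligase that restrains Stat factors, had a log2FC of 0.14 (SE 0.06, nominal p 0.0473), with 5 CIE rats above 37.3 CPM, the highest Control value. The *Pias1* call held in 3 of 12 fits with a rat removed, and the nominal p was 0.165 without the 4 rats rich in cortical markers, 0.187 with the cortical and 0.120 with the myelin marker score. That of *Ptpn1* held in 8 of 12. *Cish*, a Stat5-induced inhibitor of the Socs family, was lower, at 1.33 ± 0.220 against 1.74 ± 0.342 CPM (log2FC -0.39, SE 0.18, nominal p 0.0434). The *Cish* call was kept in 4 of 12 fits with a rat removed. Without the 4 rats rich in cortical markers its log2FC was -0.50 (nominal p 0.0603). With the cortical marker score as a covariate it was -0.56 (nominal p 0.00491 by edgeR), and with the myelin marker score -0.41 (nominal p 0.111). *Socs1*, *Socs2* and *Socs4* to *Socs7* did not pass the nominal p value.

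Of the proteases that release receptor ectodomains, *Adam17*, which cuts the IL-6 receptor among many other proteins, was lower. Its values were 20.7 to 29.8 CPM in CIE rats and 28.4 to 33.0 CPM in Control rats, and 5 of 6 CIE rats were below every Control rat, CIE rat 6 being the exception. The log2FC was -0.37 (SE 0.09, nominal p 0.000882, FDR 0.124 by edgeR), and the nominal call held in all 12 fits with a rat removed, but with the myelin marker score as a covariate it was -0.17 (nominal p 0.0540). *Adam10*, the other protease of the list, had a log2FC of -0.07 (SE 0.06, nominal p 0.201).

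Of 20 genes known as Stat3 targets, 18 could be tested, 3 were higher and 1 was lower. *Cebpb*, a transcription factor of the acute phase response, was at 11.3 to 18.7 CPM in CIE rats and 8.88 to 12.1 CPM in Control rats, with 5 CIE rats above every Control rat (log2FC 0.51, SE 0.13, nominal p 0.00131, FDR 0.153 by edgeR). *Junb*, an immediate early gene, ran from 25.4 to 59.2 CPM in CIE rats and from 22.5 to 40.4 CPM in Control rats (log2FC 0.60, SE 0.19, nominal p 0.00656). *Pim3*, a survival kinase, had a log2FC of 0.23 (SE 0.09, nominal p 0.0241), a call held in 9 of 12 fits with a rat removed.

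*Ccnd1*, which encodes the cell cycle protein cyclin D1, went the other way. It was at 20.8 to 30.6 CPM in CIE rats and 30.3 to 38.7 CPM in Control rats, with 5 CIE rats below every Control rat (log2FC -0.40, SE 0.09, nominal p 0.000396, FDR 0.0765 by edgeR). *Cebpb*, *Junb* and *Ccnd1* passed the nominal p value in all 12 fits with a rat removed. With the myelin marker score as a covariate *Cebpb* was at 0.35 (nominal p 0.0612) and *Junb* at 0.16 (nominal p 0.473). *Ccnd1* at -0.28 (nominal p 0.0198) and *Pim3* at 0.29 (nominal p 0.0300) still passed in that edgeR fit. *Gfap*, the astrocyte filament that rises in reactive astrocytes, was at 247 ± 60.4 CPM in CIE rats and 243 ± 28.4 CPM in Control rats (log2FC 0.03, SE 0.14, nominal p 0.853). *Timp1* and *Fgl2* were listed at 0 in every rat, as were the oligodendrocyte precursor marker *Gpr17* and the mural marker *Myh11*. Whether these zeros come from the counting step was not tested, so they need not mean that the genes were silent.

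Stat dimers bind the palindrome TTCNNNGAA, which reads the same on both strands, and the promoters were searched for it to set the letters beside the values. RefSeq promoters (GRCr8, a later build than the one used for counting, from 250 bases before to 50 bases after each start) were at hand for 7 of the 10 genes, and none of the 7 held the motif, which 8.87% of 33469 rat promoters hold. Of the 58 pathway genes 42 had a promoter, and 4 of them (9.52%) held it, *Cish*, *Socs1*, *Icam1* and *Bcl2l1*. The 9.52% counts genes, and *Bcl2l1* among them had more than 1 annotated start, while the 8.87% counts single promoters. A match is a description of letters and not of binding. The starts are those annotated and were not checked, so the span need not hold the promoter in use. For *Il6r*, *Il6st* and *Socs3* the 50 bases after the start already hold an ATG, so these spans may lie downstream of the promoter. The lack of a match in them therefore says nothing about the promoters in use. Any site farther upstream, or before another start of the gene, was outside the span searched. The sequence before *Il6r*, the receptor that passed the nominal p value, and that before *Socs3*, the feedback gene, are shown in full and contain no match. They span chr2:177645210-177645459 and chr10:103694769-103695018, both on the minus strand.
Il6r: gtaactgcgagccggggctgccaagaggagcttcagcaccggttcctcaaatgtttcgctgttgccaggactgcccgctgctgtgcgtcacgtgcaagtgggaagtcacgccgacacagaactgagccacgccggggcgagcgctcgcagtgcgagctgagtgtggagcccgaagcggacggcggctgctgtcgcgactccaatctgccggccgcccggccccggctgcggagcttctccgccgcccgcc
Socs3: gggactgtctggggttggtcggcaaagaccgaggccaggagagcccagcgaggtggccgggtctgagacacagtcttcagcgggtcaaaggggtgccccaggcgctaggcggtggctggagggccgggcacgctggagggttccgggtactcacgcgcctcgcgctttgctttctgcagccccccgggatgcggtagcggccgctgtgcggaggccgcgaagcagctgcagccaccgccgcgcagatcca

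*Cish*, lower in the CIE group, held the motif 4 times, starting 241, 230, 136 and 119 bases before its start, and *Socs1* and *Icam1* held it 1 time each, at 196 and 107 bases. These are shown because they are the inhibitors and the adhesion gene whose promoters carry the letters, with the motif in capitals and all on the plus strand.
Cish, chr8:116850720-116850744: gcccagttTTCCTGGAAagttcttg
Cish, chr8:116850731-116850755: ctggaaagTTCTTGGAAatctgtca
Cish, chr8:116850825-116850849: gcccgcggTTCTAGGAAgatgcggc
Cish, chr8:116850842-116850866: gatgcggcTTCCGGGAAgggctggg
Socs1, chr10:5389370-5389394: aagtcccaTTCAGGGAAggtgcgag
Icam1, chr8:27829730-27829754: cgcgaggtTTCCGGGAAagtggccc
The first *Cish* match and those at 119 bases and in *Icam1* have the form TTCCNGGAA, which 1.27% of all promoters hold. Beside the 4 matches of *Cish* (log2FC -0.39), *Socs1* had a log2FC of 0.05 (SE 0.20, nominal p 0.823), *Icam1* one of -0.17 (SE 0.15, nominal p 0.297) and *Bcl2l1* one of 0.01 (SE 0.06, nominal p 0.925), so the fitted values of genes with the motif had both signs.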

How the data were processed

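The deposited table held raw counts per gene for 12 libraries, which the authors made from poly-A RNA by paired-end sequencing, alignment with BWA to Rnor_6.0 and counting with HTSeq, whose version and strand setting are not given in the sources used here; without strand, reads of a gene and of an overlapping antisense gene cannot be told apart. The submitters' processing notes also name DESeq2 1.26. Groups came from the treatment label, since all sample titles end alike. No label says which rats shared a cage or a vapor chamber. The p values rest on the spread between these rats and treat them as independent. They could be too small if rats that shared a cage or chamber resembled each other. An effect of cage or chamber could not be separated from that of the treatment. Rats were numbered from their titles (1 to 6 CIE, 7 to 12 Control), and the numbers pair no rats. No 2 libraries of a group agreed within sampling noise. The 10 genes and all gene lists were chosen with earlier results of these data known.

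Of 37209 genes, 7757 were at 0 in every rat. After filterByExpr, 20944 were scaled by TMM and tested with edgeR 4.0.16 (glmQLFit, glmQLFTest; R 4.3.3), two-sided, 6 against 6, with no covariate, and adjusted by Benjamini-Hochberg. DESeq2 1.42.0, limma 3.58.1 and scipy 1.17.1 (exact permutation tests, and 100000 permutations for correlations) gave the rest. The statistics were tested on simulated counts. In all, 23 alternative fits were run, 12 of them leaving out 1 rat; 3, which concern cortical and striatal markers, were chosen after seeing the data. Genes named outside the 10 were those past the nominal p value in each pathway list or else the 2 with the smallest p, the 5 genes closest to *Il6r*, and 3 tissue markers. *Il6*, *Gfap*, *Adam10*, *Timp1*, *Fgl2*, *Gpr17*, *Myh11* and the Socs genes and motif-bearing genes were added after their values were seen. Levels were not compared between genes, as exon lengths were not used here. CPM are counts-per-million after TMM scaling.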

Additional observations from a re-analysis of the deposited data

Results flagged for a closer look

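In 26 groups of 6 rats (10 genes and 3 ratios in both groups), 4 held a highest or lowest value whose gap to the next exceeded Dixon's 95% limit, where chance gives about 1 in 20. *Il6r* in Control rat 12 was at 11.4 CPM, with the next Control rat at 10.1 CPM. *Il6st* in CIE rat 6 was at 163 CPM, with the next CIE rat at 143 CPM. *Socs3* in Control rat 11, the library with the fewest counts, was at 0.388 CPM, with the next Control rat at 0.876 CPM. The log2 ratio of *Socs3* to *Stat3* in that same rat was -7.10, with the next at -5.88.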

How the results depend on the processing

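The direction of *Il6r*, *Il6st*, *Lifr*, *Osmr*, *Cntfr* and *Tyk2* was the same in all 23 alternatives, and no gene of the 10 passed 5% FDR in any. The count of the 10 at the nominal p value was 2 in the edgeR fit, 3 in limma-voom (17.2% of all genes), 4 with the myelin marker score as a covariate (11.4% of all genes), and 1 with the cortical (6.64%) or with the cortical and striatal scores (8.76%); with 1 rat left out it lay between 1 (without Control rat 11 or 12) and 3, beside 6.38% to 13.3% of all genes. The smallest FDR of *Il6r* was 0.0572, in DESeq2, and 0.0816 in limma-voom. The study itself, with an earlier release of DESeq2, named *Il6r* among its top significant genes and pointed to its heat map of genes at 5% FDR. Genes near no difference turned sign. *Jak1* was at 0.00018 with library size only and 0.0021 in limma-voom. *Jak2* was at -0.018 with the myelin score, -0.024 with the cortical score, -0.026 with the cortical and striatal scores and -0.068 without the rats rich in cortical markers. *Stat3* was at 0.078 with the myelin and 0.016 with the endothelial score. *Socs3* was at -0.14 in limma-voom and -0.059 with the cortical and -0.057 with the cortical and striatal scores. With 1 rat left out, *Jak1* lay between -0.034 and 0.011, *Stat3* between -0.073 and 0.0049 and *Socs3* between -0.12 (without Control rat 11) and 0.18 (without CIE rat 5). The log2 ratio of *Il6r* to *Il6st* lay between 0.46 and 0.65, that of *Socs3* to *Stat3* between -0.16 and 0.31 and that of *Tyk2* to *Jak1* between 0.20 and 0.32, the last above an exact p of 0.05 in 8 of 12. Without the rats rich in cortical markers the 3 ratios differed by 0.36, -0.015 and 0.37. The cause of these shifts was not tested. *Socs3* had 15 to 100 and *Osmr* 44 to 249 counts per library, and depth and the spread between rats were not separated. No paired analysis was possible because the groups share no replicate numbers.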

Other observations

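*Clcf1*, a gp130 ligand that acts through *Cntfr* and was looked at for its wide spread after its values were seen, was at 11.3 CPM in CIE rat 2, 8.83 CPM in Control rat 10 and 2.13 CPM in CIE rat 4, and between 0.0769 and 0.691 CPM in the other 9 rats. The same 3 rats had the highest summed level of 6 striatal markers, at 3106, 3449 and 1411 CPM. Between the groups its log2FC was 0.42 (SE 1.17, nominal p 0.723 by edgeR), and with 1 rat left out it ran from -1.45 without CIE rat 2 (nominal p 0.199) to 2.54 without Control rat 10 (nominal p 0.0326). With the endothelial marker score as a covariate it was 3.54 (nominal p 0.0111).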
